A study of Mus musculus with 6 samples.

Results

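The sequences described here were the small RNA reads of 28 or 29 nt that began with U (T in the deposited sequences), the length and first base known for piRNAs bound by MIWI2. They were chosen by sequence alone: every distinct read of 28 or 29 nt without N and with T at position 1, leaving out any that matched a GENCODE miRNA gene in sense. Over the 6 libraries there were 2057560 such sequences of 12699399 distinct sequences of 18 to 32 nt. By library, 661494 of 4951907 distinct sequences of any length were members in Dnmt3L WT at 16.5 dpc, and 961286 of 6478621 in Dnmt3L KO at 16.5 dpc. After birth, at 10 dpp, the numbers were 201819 of 2279855 in Dnmt3L WT, 34759 of 966003 in Dnmt3L KO, 379864 of 4140107 in Miwi2 WT and 280405 of 3206399 in Miwi2 KO. Length and first base do not show which protein held a read, and no PIWI protein was pulled down in these libraries.

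PIWI-interacting RNAs (piRNAs) guide PIWI proteins of the germline to transposon RNA and DNA. In fetal male germ cells, MILI cleaves transposon transcripts, and MIWI2 (gene Piwil4) carries piRNAs into the nucleus, where DNA methylation of transposons follows. Dnmt3L is the cofactor of the de novo DNA methyltransferases of these cells. A primary piRNA usually starts with U. A piRNA cut from the opposite strand by a U-first guide carries A at position 10 and overlaps the 5′ end of that guide by 10 nt, the ping-pong mark.

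Whole testes of C57BL/6 mice were used, and each of the 6 groups was 1 library from pooled animals. Dnmt3L wildtype (WT) and knockout (KO) testes were taken before birth at 16.5 days post coitum (dpc) from 7 or 8 mice a pool, and at 10 days post partum (dpp) from 3. Miwi2 WT and KO testes were taken at 10 dpp from 3 mice a pool, and the WT pools were littermate controls. With 1 library a group, no spread between animals can be estimated and no difference between conditions was tested. The labels give only knockout for the allele, and a whole testis holds germ and somatic cells, so fewer germ cells and less RNA per germ cell cannot be told apart. Libraries held 28701563 to 47232494 reads, of which 85.3% to 95.6% had 18 to 35 nt. Levels are in RPM, that is, reads per 1000000 of all reads in that library. The 95% intervals are exact (Poisson, Clopper-Pearson or conditional binomial) and cover counting error only, since amplified reads carry no molecular identifiers and need not be independent molecules. A count of 0 allows up to 3 reads, or 0.0635 to 0.105 RPM. Both Dnmt3L libraries of 10 dpp list reads up to 100 nt and the other 4 up to 50 nt. They may thus differ in sequencing or trimming from the other 4, and which of these differed is not known. Sense member reads on Dnmt3l numbered 16 and 153 in WT and KO at 16.5 dpc, 0 in both Dnmt3L libraries of 10 dpp, 5 in Miwi2 WT and 3 in Miwi2 KO. On Piwil4 they numbered 3 and 0 at 16.5 dpc, 3 and 0 in the Dnmt3L pair of 10 dpp, and 0 in both Miwi2 libraries. Small RNA reads of this kind do not check a knockout.

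The members that led a library by abundance are shown first, since the results below come back to them. Positions 1 and 10 are in capitals, so that a member with A at position 10 can be seen at once. The sequences are those of the deposited files. Coordinates and gene names come from exact matches to GENCODE vM21 transcripts (build GRCm38).
m2: TccgggtgaTgcgaatcgtaatctgagc
m6: TatctgtgaGgataagtaactctgagga
m11: TtgcaatgaTgtcatcttactactgaaa
m3: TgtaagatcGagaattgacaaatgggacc
m4: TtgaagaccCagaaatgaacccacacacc
m5: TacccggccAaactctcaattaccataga
m7: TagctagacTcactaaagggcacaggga
m9: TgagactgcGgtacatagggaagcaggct
m12: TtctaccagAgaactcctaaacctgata
m13: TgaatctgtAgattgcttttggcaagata

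Sequences m2, m6 and m11 are pieces of small nucleolar RNAs, which guide chemical modification of other RNAs. Sequence m2 lies at chr11:106501035-106501062 in Snord104. Sequences m6 (chr19:8724034-8724061, Gm25855) and m11 (chr19:8724573-8724600, Gm24452) lie in snoRNA genes within the host transcript Snhg1. The other 7 each matched several annotated genes, in sense or in antisense: m9 matched 6 genes, all in antisense, m5 matched 9, m12 matched 14 and m7 matched 23. Sequences m3, m4 and m13 matched 31, 47 and 48 genes and are called repeat-like, as is any member found in 10 or more genes that are not pseudogenes. Sequences m7 and m12 fall below that number once pseudogenes are left out, and with m5 they count as members on both strands. Transposon families are not named, because no repeat annotation was used here. A pair of further leading members, m1 and m8, matched no transcript and are given by values only.

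A further set was added after the values were seen: the most abundant members that matched a single gene. Sequences m14 and m15 lie in exon 1 of Fth1, the ferritin heavy chain, on a transcript with no annotated coding part, at chr19:9982747-9982774 and chr19:9982795-9982822. Sequence m16 lies at chr15:35590187-35590214 in Gm7968, a noncoding locus, and m17 in the 3′ UTR of Ppm1f, a protein phosphatase, in exon 8 of 8 at chr16:16925886-16925914. Sequence m10 is antisense to the 3′ UTR of Zfp316 (chr5:143250887-143250915). Its single match is that of all 29 nt to the longest annotated transcripts, and other copies in the genome were not searched for. Shorter and commoner reads share its start: in Dnmt3L WT at 10 dpp, 142888 reads of 24 nt had its first 24 bases. Sequence m10 itself had 109 reads there.
m14: TgcttgaacGgaacccggtgctcgaccc
m15: TtcgagcctGagccctttgcaacttcgt
m16: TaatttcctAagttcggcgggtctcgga
m17: TagctaggtAttgcttaacttgaaggcct
m10: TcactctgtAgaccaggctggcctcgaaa

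Members were most abundant before birth and least abundant in Dnmt3L KO at 10 dpp. They made up 69637 RPM (95% interval 69557.7 to 69716.6) in Dnmt3L WT and 77717.5 RPM in Dnmt3L KO at 16.5 dpc. At 10 dpp they made up 15724 RPM in Dnmt3L WT, 3016 RPM (2996 to 3036) in Dnmt3L KO, 38182.5 RPM in Miwi2 WT and 41381 RPM in Miwi2 KO. Of all reads of 28 or 29 nt in a library, 64.0% to 76.0% were members. The pool was wide: 41.2% to 76.5% of a library's distinct members were seen as a single read, and 84.4% of all members were found in 1 library only. The 4894 members found in all 6 libraries carried 18.3% of member reads in fetal WT and 16.7% in fetal KO. After birth they carried 28.2% in Dnmt3L WT, 55.2% in Dnmt3L KO, 24.3% in Miwi2 WT and 41.6% in Miwi2 KO. In a draw of 86554 member reads, the size of the smallest set, 55134 and 58190 distinct members were expected at 16.5 dpc, and 50176 and 34759 in Dnmt3L WT and KO of 10 dpp. Miwi2 WT and KO gave 54014 and 41313. The 100 most abundant members held 9.45% to 11.1% of member reads in both 16.5 dpc libraries and both WT libraries of 10 dpp, 22.6% in Miwi2 KO and 29.8% in Dnmt3L KO at 10 dpp. Both KO libraries of 10 dpp therefore held fewer distinct members in an equal draw than their WT.

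The ratio of 29-nt to 28-nt reads differed between libraries. The 29-nt reads were 42.4% and 42.9% of member reads at 16.5 dpc, 38.5% and 41.5% in Miwi2 WT and KO, 29.1% in Dnmt3L WT at 10 dpp and 14.6% in Dnmt3L KO at 10 dpp. U-first reads that were longer still, 30 to 32 nt, stood at 31943, 35458, 3007, 168, 18673 and 23868 RPM beginning with fetal WT and fetal KO, then the postnatal Dnmt3L WT and its KO, then Miwi2 WT and its KO. All lists of 6 values below follow this order. U-first reads of 26 to 27 nt stood at 85753, 91149, 42597, 14783, 54640 and 50930.5 RPM. In Dnmt3L KO at 10 dpp the shortfall against WT thus grew with length, from 26 to 27 nt to 30 to 32 nt.

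Most fetal members matched no annotated transcript, while postnatal members more often matched mRNAs in sense. An exact match to the longest transcript of a gene was found for 39.8% and 36.9% of member reads in WT and KO at 16.5 dpc. At 10 dpp it was found for 58.2% and 59.9% in Dnmt3L WT and KO and for 56.9% and 63.3% in Miwi2 WT and KO. Reads that matched in sense only, in fewer than 10 genes, were 11.9% and 11.4% at 16.5 dpc, against 41.5% in Dnmt3L WT and 39.5% in Miwi2 WT at 10 dpp. They were 21.6% in Dnmt3L KO and 27.4% in Miwi2 KO at 10 dpp. Repeat-like reads and pieces of snoRNA and other short genes were left out of these sense shares. With the same left out, reads found on both strands were 12.5%, 12.2%, 6.56%, 15.8%, 6.13% and 15.6% of member reads. Repeat-like reads were 7.55%, 5.82%, 4.39%, 9.44%, 4.82% and 14.0%. In each KO library of 10 dpp both of these shares were higher than in its WT, and at 16.5 dpc neither was.

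Pieces of snoRNA, mitochondrial tRNA, rRNA and similar short genes are in the member set by the rule, since only miRNA genes were left out. Nuclear tRNA was not part of this class, so any pieces of it are counted elsewhere. They made up 1.15%, 0.914%, 2.84%, 10.4%, 3.56% and 3.16% of member reads. In RPM they stood at 798, 710, 447, 315, 1360 and 1308. These reads are not known as piRNAs, so the level of the members in Dnmt3L KO at 10 dpp includes a larger part of this class than in any other library.

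Among members that matched 1 strand only, 34.5% (34.4% to 34.6%) of reads were antisense in WT at 16.5 dpc and 35.7% in KO. At 10 dpp the antisense share was 6.16% in Dnmt3L WT, 7.70% (7.40% to 8.00%) in Dnmt3L KO, 6.42% in Miwi2 WT and 9.39% (9.31% to 9.47%) in Miwi2 KO. The antisense share was thus higher in KO than in WT in all 3 comparisons, by more than counting error. The gaps were few percentage points with pieces of snoRNA and other short RNAs counted as sense. In the Dnmt3L pair of 10 dpp that class held 17028 reads in WT and 9043 in KO, beside 282425 and 30011 reads on 1 strand. Without it and repeat-like members, antisense and sense members there had 17367 and 248416 reads in WT, and 2306 and 18680 in KO. The gap of this pair is thus wider without these pieces. Members found in a single gene gave antisense shares of 33.4%, 32.9%, 5.91%, 8.28%, 6.09% and 8.31%, and at 16.5 dpc this share was not higher in KO.

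On mRNAs, most single-gene sense reads lay in 3′ UTRs in each library, and more so after birth. Of sense reads found in a single protein-coding gene, 53.6% and 57.0% lay in the 3′ UTR at 16.5 dpc. At 10 dpp the shares were 85.9% and 78.0% in Dnmt3L WT and KO and 76.5% and 73.3% in Miwi2 WT and KO. Over the longest transcripts of all 19362 protein-coding genes, with or without members, the 3′ UTR makes up 45.2% of the bases. Counted over distinct members, the 3′ UTR shares were 46.8%, 48.3%, 77.4%, 74.4%, 67.8% and 66.7%. At 16.5 dpc they were thus near the share of the bases. The read shares there include a gene of large weight, D10Wsu102e, with 35207 and 49547 sense reads on a transcript of 123179 nt. Of its member reads 99.7% lay in the 3′ UTR, and 75.3% were found in no other gene. Single-gene sense reads on all genes numbered 257540 and 307983, of which 51.5% and 51.1% were on protein-coding genes. Shares without D10Wsu102e were not computed, so whether most fetal reads of other mRNAs lay in 3′ UTRs is not known. The base after the 3′ end of single-gene sense members was T in 24.7% to 28.9% of reads, against 22.2% to 27.6% at the 4 next bases, a small difference. In each library the share at the first base was higher than at any of the next 4, though in Dnmt3L KO at 10 dpp its interval (26.9% to 28.3%) held the share of the third base, 27.4%.

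Few transcripts carried much of the signal. Member reads fell in sense on 7755 to 22465 transcripts a library, but 63 to 331 transcripts held the first 50% of them. D10Wsu102e (chr10:83360221-83488505) had the highest sum over the 6 libraries in both directions: its sense members stood at 831, 1049, 202, 28.01, 367 and 312 RPM and its antisense members at 327, 318, 60.0, 18.1, 118 and 294 RPM. It did not lead each library: in Miwi2 KO Gm42860 (427 RPM) and Noct were higher in sense and Gm26905 (349 RPM) in antisense. In Dnmt3L KO at 10 dpp Snhg1 (95.1 RPM), snoRNA Gm25789 (46.6 RPM), Snord104 (31.7 RPM) and Noct (28.02 RPM) were higher in sense. Gm26905 (22.4 RPM) and Gm47578 (19.3 RPM) were higher there in antisense. In fetal KO, Gm47578 (330.1 RPM) and Gm26905 (318.5 RPM) were higher in antisense. Gm7968 (chr15:35589314-35591638), Gm35240 (chr12:77553347-77569709) and Gm42427 (chr5:44137980-44143271) had 222 to 416 RPM in sense in both fetal libraries. Each had under 11 RPM in all 4 libraries of 10 dpp. Noct (chr3:51224447-51251644), which encodes nocturnin, had 193, 138, 32.8, 28.02, 57.8 and 365 RPM. Only 18.1% of its member reads were found in no other gene. Some leading fetal sources were thus nearly without reads at 10 dpp.

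A at position 10 was more frequent in the members than in U-first reads of 26 to 27 nt of the same library. Its share was 36.0% (35.9% to 36.0%) and 36.6% in WT and KO at 16.5 dpc. At 10 dpp it was 32.997% and 34.2% in Dnmt3L WT and KO, and 33.4% and 33.7% in Miwi2 WT and KO. The reads of 26 to 27 nt gave 28.7%, 28.5%, 27.4%, 28.7%, 26.995% and 31.2%. In U-first reads of 30 to 32 nt it was 29.9% to 35.8%, and in Dnmt3L WT at 10 dpp it was higher there than in the members. Reads of 30 nt alone gave 37.1%, 37.5%, 38.1%, 34.4%, 35.2% and 34.4%, above the members in every library. In Dnmt3L KO at 10 dpp that gap lay within counting error (32.6% to 36.1%). Reads of 27 nt alone gave 30.1%, 30.2%, 30.7%, 33.2%, 29.3% and 34.9%, above the members in Miwi2 KO. A high share was thus not particular to 28 and 29 nt. Over distinct members, each counted once, the share was 30.8% to 32.95% in all 6 libraries. The 29-nt members had more A at position 10 than the 28-nt members in every library, with the smallest gap in Miwi2 KO (35.5% against 32.4%) and the largest in Dnmt3L WT at 10 dpp (39.5% against 30.3%). Position 10 was not always the richest in A: among positions 2 to 28 it ranked 1 and 1 at 16.5 dpc, 3 and 5 in Dnmt3L WT and KO of 10 dpp, and 2 in both Miwi2 libraries. Position 5 reached 34.8% to 43.4% and was ahead of position 10 in all 4 libraries of 10 dpp.

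The share differed by kind of match. Members on both strands had A at position 10 in 39.3%, 44.5%, 46.4%, 52.7%, 49.8% and 39.4% of reads, and sense members in 37.5%, 36.0%, 31.1%, 32.3%, 30.8% and 30.8%. In Miwi2 KO the share on both strands was lower than in Miwi2 WT, and among repeat-like members it was 35.1% against 49.0%. In Dnmt3L KO at 10 dpp the repeat-like share was also lower than in WT, 38.3% against 43.5%, while the share on both strands was higher.

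The 10-nt overlap of ping-pong stood out in every library. Overlaps of 1 to 20 nt between the 5′ ends of members and of opposite-strand reads of 24 to 32 nt were counted, each pair weighted by the smaller read count. The 10-nt overlap took 14.0%, 14.2%, 16.7%, 17.8%, 19.1% and 18.0% of them, and the next most frequent overlap 5.35% to 8.11%. The share of matched member reads with at least 1 such partner differed more: 58.3% and 61.8% at 16.5 dpc, 13.3% and 29.02% in Dnmt3L WT and KO of 10 dpp, and 16.8% and 40.1% in Miwi2 WT and KO. Partners at 9 nt were found for 38.5%, 41.3%, 7.05%, 14.1%, 11.3% and 21.5%, fewer in each library but in the same order within each pair. Sense members had a 10-nt partner in 1.79% to 35.2% of reads, against 67.1% to 84.9% of repeat-like members. By definition repeat-like members matched 10 or more genes, and so had more places where a partner could be found. Partners at 9 nt were not split by class, so this gap cannot be read as more ping-pong.

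Matched members with a 10-nt partner carried A at position 10 in 42.8%, 44.7%, 52.7%, 54.3%, 56.0% and 43.8% of reads, and those without in 31.2%, 29.9%, 29.98%, 26.3%, 29.9% and 27.1%. With exact pairing, A at position 10 of the member is the same as T at position 1 of the partner, so the first of these shares is also the share whose partner was itself U-first. Members with a partner at 9 nt gave 40.3%, 42.8%, 48.2%, 71.3%, 64.2% and 42.1%, but many of these may also have a 10-nt partner, and the sets were not separated.

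The pairs with the most partner reads are printed below with the 10 paired bases in capitals, each line 5′ to 3′. They are not typical of the named members. For m3, m4, m5, m7, m10 and m13 the most abundant partner had at most 17 reads in any library. The partner of m9 begins with C. Its A at position 10, like that of every partner, is fixed, since members begin with T and the pairing is exact. The partners of m12 and m16 begin with T, so both sides of these pairs are U-first with A at position 10.
m9 with its overlap: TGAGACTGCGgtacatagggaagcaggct
partner of m9: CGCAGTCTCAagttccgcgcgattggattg
m12 with its overlap: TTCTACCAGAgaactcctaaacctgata
partner of m12: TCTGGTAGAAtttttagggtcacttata
m16 with its overlap: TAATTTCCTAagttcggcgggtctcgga
partner of m16: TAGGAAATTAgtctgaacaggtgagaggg

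The partner of m16, itself a member of 29 nt, had 3407 and 7973 reads in WT and KO at 16.5 dpc, then 3 in Dnmt3L WT, 11 in Dnmt3L KO, 115 in Miwi2 WT and 678 in Miwi2 KO after birth. Sequence m16 had 2410 and 2739 reads at 16.5 dpc, 0 in both Dnmt3L libraries of 10 dpp, and 12 and 11 in the Miwi2 pair. Both sides of this pair were thus high before birth and low at 10 dpp, where m16 had at most 12 reads and the partner at most 678. The partner of m9, of 30 nt, had 2997 and 4625 reads at 16.5 dpc and 0, 0, 7 and 20 at 10 dpp. The partner of m12 had 171, 132, 24, 76, 2 and 822 reads.

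Shorter reads with the same 5′ end existed for most member reads but for a smaller share of distinct members. A read of 24 to 27 nt identical to the start of the member was found in the same library for 65.0% and 64.5% of member reads in WT and KO at 16.5 dpc. At 10 dpp it was found for 55.2% and 63.3% in Dnmt3L WT and KO and for 58.0% and 68.4% in Miwi2 WT and KO. Over distinct members the share was 27.5% to 30.6%. With every library thinned to 28701563 reads the values were 63.5%, 62.0%, 53.4%, 63.3%, 56.3% and 67.6%, so depth did not change the order within a comparison. Repeat-like members had a shorter form for 92.4% to 98.1% of reads and members on both strands for 81.1% to 94.3%. Sense members had one for 69.9%, 70.7%, 56.0%, 39.6%, 59.0% and 56.1%, lower in Dnmt3L KO at 10 dpp than in WT.

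Read the other way, the 5′ ends used by members gave more reads of 24 to 27 nt than of any longer class in every library, and almost no others in Dnmt3L KO at 10 dpp. Of all reads of 24 to 32 nt that shared their first 24 bases with a member, 53.6% and 55.4% had 24 to 27 nt at 16.5 dpc. The shares were 77.3% and 94.2% in Dnmt3L WT and KO of 10 dpp, and 57.1% and 53.3% in Miwi2 WT and KO. In Dnmt3L KO at 10 dpp 52.3% of them had 24 nt. Taking each 5′ end with at least 20 reads once, the most frequent length was 24 to 27 nt for 48.96%, 48.1%, 65.5%, 81.7%, 50.8% and 47.8% of ends. In Dnmt3L KO at 10 dpp, 28 or 29 nt was the most frequent length for 17.7% of ends, against 31.2% in Dnmt3L WT at 10 dpp and 39.1% to 42.0% in the other 4 libraries. In the same KO, 24 nt was the most frequent length for only 15.9% of ends, and 27 nt for 31.5%. The 52.3% of reads at 24 nt thus does not describe most ends. Members that begin like a miRNA, with their first 20 bases inside a miRNA gene, were 2.96% to 3.73% of member reads, and 8.03% in Dnmt3L KO at 10 dpp.

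Single sequences showed several patterns of length. The reads that start like m3 peaked at 29 nt in WT at 16.5 dpc (13247 reads, against 2308 at 27 nt) and in Miwi2 KO (17700 against 1658). In Dnmt3L KO at 10 dpp they peaked at 27 nt, with 349 reads against 93 at 29 nt. The snoRNA piece m2 was mostly of 1 length: 5682 reads of 28 nt, 18 of 27 nt and 142 of 31 nt in WT at 16.5 dpc, and 913, 18 and 1 in Dnmt3L KO at 10 dpp. Sequence m17 of Ppm1f had no read of 24 to 27 nt with its start in any library. Sequence m9 had more reads of 25 nt than of 29 nt in the WT of 16.5 dpc, 9048 against 4901.

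Without Dnmt3L at 16.5 dpc the member pool was close to WT in size, and few members or transcripts differed much. The total was 1.12 times WT (1.11 to 1.12), with 1.11 times for 28 nt and 1.13 times for 29 nt. Repeat-like members were at 0.860 of WT and unmatched members at 1.17. Calls were made on a fixed rule, at least a 4-fold difference in RPM after adding 0.5 reads to each count, for features with at least 200 reads over both libraries. By that rule 4.56% of 2436 single members were higher in KO (111) and 1.68% lower (41). Among the named sequences, m9 had 112 RPM in WT and 356 RPM in KO (3.19-fold, 3.09 to 3.29), and m5 had 119 and 347 RPM (2.92-fold). Sequence m13 had 235 RPM in WT and 46.9 RPM in KO, or 0.200 of WT (0.191 to 0.209), past the 4-fold limit. Abundant sequences thus differed in opposite directions.

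Of 783 transcripts, 0.255% were called higher in fetal Dnmt3L KO (2 transcripts) and 0% lower. The 2 were Asb18 (chr1:89950220-90014666), with 4.62 RPM in WT and 36.6 RPM in KO (7.92-fold, 6.82 to 9.21), and Mfsd5 (chr15:102279454-102281754), with 0.826 and 3.75 RPM (4.54-fold, 3.14 to 6.72). Only 0.8% of the member reads on Asb18 were found in no other gene, whereas all of those on Mfsd5, a molybdate transporter, were. Next came Adam12, a metalloprotease (3.63-fold), Gm37900 (3.41-fold) and 1700047G07Rik (3.31-fold), all under the limit. The lowest were snoRNA Gm25789 (0.261), mitochondrial tRNA mt-Tm (0.265), Sys1 (0.323), Prx (0.330) and snoRNA Gm22680 (0.366). The median log2 ratio over the 783 was 0.03.

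Without Dnmt3L at 10 dpp members were far fewer, with 3016 RPM against 15724 RPM in WT, or 0.192 of WT (0.190 to 0.193). The 28-nt members were at 0.231 of WT and the 29-nt members at 0.0959. Sense members were at 0.0997 of WT, antisense members at 0.176, members on both strands at 0.461 and repeat-like members at 0.413. Pieces of snoRNA and other short RNAs were at 0.704, and 0 of 8 such members with enough reads were called in either direction. The ratio was thus lowest in sense members and highest in other small RNA of the same length. Reads on miRNA genes numbered 24462979 in WT and 21681473 in KO, and per miRNA read the members were lower still, by a log2 ratio of -2.62 against -2.38. Whether fewer germ cells, another cell make-up or the library had a part was not tested.

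Single sequences varied around this. Of 158 single members with enough reads, 65.8% were lower in KO (104) and 3.8% higher (6). Among sense members 52 of 57 were lower and 1 higher, and among members on both strands 18 of 29 were lower and 4 higher. Sequence m17 of Ppm1f had 38.1 RPM in WT and 1.78 RPM in KO, or 0.0466 of WT (0.0345 to 0.0616). Sequence m13 had 41.2 and 1.498 RPM, or 0.0364. Sequence m12 went the other way, with 4.73 RPM in WT and 98.4 RPM in KO (20.8-fold, 17.9 to 24.3), and was the most abundant member of that library. The snoRNA pieces m6 and m11 were next, with 157 and 65.0 RPM in WT and 95.8 and 84.5 RPM in KO.

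Of 310 transcripts, 81.3% were called lower in Dnmt3L KO at 10 dpp (252) and 1.61% higher (5). The median log2 ratio over the 310 was -3.54. With TMM scaling, which sets the bulk of these transcripts to no change, 8 were lower and 52 higher, and size factors gave the same 8 and 52. The lowest were Kif15, a mitotic kinesin, with 6.90 RPM in WT and 0.0373 RPM in KO (0.0054 of WT, 0.000127 to 0.0283), Emc1 of the endoplasmic reticulum (9.85 and 0.137 RPM), Tanc2 (6.36 and 0.105 RPM), Stk4, the Hippo pathway kinase (11.6 and 0.209 RPM), and Bpnt1, a nucleotidase (32.4 and 0.592 RPM). Of the member reads on these 5 mRNAs, 68.2% (Stk4) to 98.98% (Bpnt1) lay in the 3′ UTR. The 5 transcripts called higher were Vps35 (0.466 and 7.69 RPM, 16.5-fold, 10.1 to 27.99) and the pseudogenes Gm48416, Gm47102, Gm48541 and Gm48270, from 4.14-fold to 4.98-fold. At most 3.52% of the member reads on any of these 5 were found in that gene only, and m12 matched Gm48416, Gm47102 and Gm48270 among others. Vps35 encodes a retromer subunit, and only 0.400% of its member reads matched no other gene. Transcripts with at least 90% of reads found in no other gene were called lower in 210 of 216 cases and higher in none. Those with under 50% were called lower in 11 of 62 cases and higher in 5. Their median log2 ratios were -3.71 and -0.01.

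Without Miwi2 at 10 dpp the total was close to WT, but its make-up moved from mRNAs to sequences shared by many genes. Members had 38182.5 RPM in WT and 41381 RPM in KO, or 1.08 times WT (1.08 to 1.09). Repeat-like members were 3.15 times WT (3.12 to 3.18) and members on both strands 2.75 times. Sense members were at 0.752 of WT, unmatched members at 0.923 and pieces of snoRNA and other short RNAs at 0.961. The 29-nt members were 1.17 times WT and the 28-nt members 1.03 times.

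Of 1207 single members, 26% were higher in Miwi2 KO (314) and 2.57% lower (31). Members on both strands were higher in 140 of 250 cases and repeat-like members in 76 of 182, against 41 of 401 sense members and 0 of 52 pieces of other short RNAs. Sequence m12 had 1.40 RPM in WT and 199 RPM in KO (142-fold, 111 to 185), m5 had 2.07 and 218 RPM (106-fold, 86.0 to 131) and m7 had 4.15 and 186 RPM (44.8-fold). Sequences m3 and m4 had 52.6 and 58.4 RPM in WT and 465 and 503 RPM in KO, 8.84-fold and 8.62-fold higher. Sequence m13 differed the other way, with 27.7 RPM in WT and 7.63 RPM in KO, or 0.276. The unmatched m1 was the most abundant member in both, with 440 and 561 RPM.

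The 314 higher members had a higher median before birth than all 1207 tested, the 314 included, as read in the 4 Dnmt3L libraries, which the choice did not use. Their median was 3.66 RPM in Dnmt3L WT at 16.5 dpc (quartiles 1.26 and 10.1), against 1.27 RPM for all 1207. At 10 dpp their median was 0.158 RPM in Dnmt3L WT, against 0.368 RPM for all 1207. In Dnmt3L KO at 10 dpp it was 0.383 RPM, against 0.105 RPM for all 1207. Of the 314, 250 (79.6%) had at least 1 RPM in Dnmt3L WT at 16.5 dpc, against 655 of all 1207 (54.3%). In Dnmt3L WT at 10 dpp 52 of the 314 (16.6%) had it, against 373 of all 1207 (30.9%). The 31 lower members had medians of 0.496 RPM in Dnmt3L WT at 16.5 dpc and 0.499 RPM in Dnmt3L WT at 10 dpp. The 314 were chosen as low in Miwi2 WT against KO, so low values in another WT library of 10 dpp may follow from the choice. Of the 314, 68.8% were on both strands or repeat-like, against 35.8% of all 1207. Many may thus share a source, and the medians and quartiles describe the list, not independent members. A at position 10 was found in 38.9% of the higher members and in 39.7% of all tested, so the called members did not stand apart by this base.

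Of 1219 transcripts, 9.93% were called higher in Miwi2 KO (121) and 0.902% lower (11). With at least 90% of reads in that gene only, 2 of 701 were called higher and 7 lower. With under 50%, 116 of 368 were called higher and none lower. The 5 largest ratios included 1 transcript with its own reads: Nrros (chr16:32142785-32165594), a partner of latent TGF-beta, with 2.17 sense reads in WT and 337 in KO (188-fold, 56.0 to 1690) and 99.9% of reads in no other gene. The others were Gm37900 (0.399 and 34.4 RPM, 86.2-fold), Vps35 (0.240 and 18.9 RPM, 78.9-fold), Gm21962 (0.779 and 53.9 RPM, 69.2-fold) and Gm47654 (0.842 and 48.6 RPM, 57.8-fold). The lowest was the zinc finger gene Zfp317, with 29.4 RPM in WT and 2.59 RPM in KO (0.0882, 0.0706 to 0.108). It was followed by Zyg11a (0.154), the centrosomal Cep68 (0.167), the lipid kinase Pik3c2b (0.171) and Tapbp, which encodes tapasin (0.182). The median log2 ratio over the 1219 was -0.50, and with TMM scaling 139 were higher and 4 lower.

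Between 16.5 dpc and 10 dpp in WT, the share of unmatched, antisense and repeat-like members was smaller and that of sense members larger. The Dnmt3L WT library of 10 dpp is the same one that served as control for Dnmt3L KO at 10 dpp, so the comparisons are not independent. The total at 10 dpp was 0.226 of that at 16.5 dpc. Sense members were at 0.786, antisense members at 0.0984, members on both strands at 0.119 and unmatched members at 0.157. Of 1191 single members 80.4% were lower at 10 dpp (958) and 7.05% higher (84). Sequence m7 had 244 RPM at 16.5 dpc and 0.158 RPM at 10 dpp, and m3 had 297 and 2.55 RPM. Sequence m17 of Ppm1f had 0.472 RPM at 16.5 dpc and 38.1 RPM at 10 dpp (80.7-fold, 52.1 to 133). The longest read listed differed between these 2 libraries, 50 nt at 16.5 dpc and 100 nt at 10 dpp. Whether sequencing or trimming differed is not known, and their part was not tested.

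Of 707 transcripts, 29.3% were called higher at 10 dpp (207) and 52.9% lower (374). With TMM scaling the numbers were 263 and 252, and with size factors 293 and 171. Gpr161, a receptor of primary cilia, had 0 reads at 16.5 dpc and 242 at 10 dpp, at least 89.8-fold higher when the 0 is set to 3 reads (lower end of the exact interval, 72.5-fold). Others were Rnf144a, a ubiquitin ligase (3 and 373 reads, 138-fold, 47.0 to 674), Dhx33, an RNA helicase (135-fold), Dennd1b (2 and 222 reads, 124-fold, 33.8 to 1026) and Gna13, a G protein subunit (76.5-fold). Between 86.1% and 97.9% of the member reads of these 5 mRNAs lay in the 3′ UTR. The lowest were noncoding: Gm35240 had 222 RPM at 16.5 dpc and 0.0197 RPM at 10 dpp, Gm7968 had 333 and 0.0751 RPM, and Gm48916 had 108 and 0.0263 RPM. Gm47761 had 137 and 0.035 RPM. Gm48274, whose reads matched no other gene, had 40.5 RPM at 16.5 dpc and was at 0 reads at 10 dpp, at least 513-fold lower when the 0 is set to 3 reads (upper end of the exact interval, a ratio of 0.0024).

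The WT libraries at 10 dpp lay further apart in total than Miwi2 WT and KO did. Members were 2.43 times as abundant in Miwi2 WT as in Dnmt3L WT (2.42 to 2.44), and 3.21 times for 29 nt. Of 741 single members 51.3% were higher in Miwi2 WT (380) and 4.05% lower (30). Of 987 transcripts 25.5% were called higher (252) and 0% lower, with TMM scaling 92 and 9, with size factors 87 and 9. Among the 5 largest ratios were the pseudogene Gm9711 (1 and 217.7 reads, 184-fold, 32.7 to 7316), Nlrc4, an inflammasome gene (73.5-fold, 26.8 to 386), and the pseudogenes Rps15-ps2 (66.1-fold, 20.5 to 296) and Gm5781 (58.6-fold, 21.2 to 203). Each had under 4 reads in Dnmt3L WT, and of the 4 only Gm9711 had most of its member reads (97.5%) in no other gene. These ratios between WT libraries were of the same order as the largest between Miwi2 KO and WT. The snoRNA piece m2 had 19.4 RPM in Dnmt3L WT and 356 RPM in Miwi2 WT, 18.4-fold, and Fth1 had 36.4 and 293 RPM, 8.03-fold. These 2 libraries are WT of the same age, strain and tissue, so 4-fold differences arose between them without a knockout. They are controls of different knockouts, and their longest listed reads differed, 100 nt in Dnmt3L WT and 50 nt in Miwi2 WT. Both Miwi2 libraries list up to 50 nt, so the WT pair is not a like yardstick for Miwi2 KO against WT. The part of sequencing or trimming was not tested.

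Genes of the piRNA pathway gave few members themselves. Of 18 germ cell and piRNA factors, 6 to 16 had any sense member read in a library, and their sum was 5.55, 7.93, 9.35, 0.524, 26.6 and 18.7 RPM. Dnmt3a, the de novo DNA methyltransferase, led the list in 5 of the 6 libraries. It had 1.70 and 0.932 RPM at 16.5 dpc, 6.96 and 0.279 RPM in Dnmt3L WT and KO of 10 dpp (0.0400 of WT, 0.0171 to 0.0801), and 19.7 and 12.7 RPM in Miwi2 WT and KO (0.643). Markers of somatic cells gave almost none: the lists of Sertoli, Leydig, peritubular, endothelial and blood cell genes each summed to at most 2.11 RPM in any library. Between Miwi2 WT and KO the 6 peritubular and matrix genes went from 0.368 to 2.11 RPM (16.6 and 78.6 reads), and the 8 Sertoli genes from 0.555 to 0.0806 RPM (25 and 3 reads). The Leydig genes went from 1.55 to 0.734 RPM, the endothelial genes from 0.0889 to 0.296 RPM and the blood genes from 0.0222 to 0 RPM. Such small sums of reads do not measure cell numbers. The part of cell make-up in the Miwi2 comparison was not tested. The 6 meiotic genes summed to at most 0.755 RPM.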

How the data were processed

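Small RNA of whole testis (18 to 35 nt fraction, Trizol, Illumina TruSeq, per the labels) was sequenced in 6 libraries. The deposited values are raw counts of reads per distinct sequence. The submitters' processing notes name mm9. How reads were trimmed, aligned or filtered is not given in the sources used here. Counts were scaled to the library total. Sequences without N were matched exactly, on both strands, to the longest GENCODE vM21 transcript (GRCm38) of 55450 genes. Reads matching several genes were split equally. Sums at or above 200 reads were compared at a 4-fold limit with a pseudocount of 0.5 reads. Matching and calls were tested on simulated data. Alternatives used edgeR 4.0.16 (TMM) and DESeq2 1.42.0 (size factors) for scaling only, in R 4.3.3, with Python 3.11.15. No model was fitted, because each group has 1 library. Reads per library and the precision they give stand in the report. Named sequences were the 3 highest of each library and the 5 highest by mean, without those on chromosome 18. Named transcripts were the 10 highest in sense, the 5 highest in antisense and the 5 largest and 5 smallest ratios of each comparison; 1 of them is not reported here. The members, lists and rules were chosen with earlier results of these data known.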

Additional observations from a re-analysis of the deposited data

Results flagged for a closer look

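Dnmt3L KO differed from WT in opposite directions at the 2 ages, each with 1 library a group, and this difference between ages was not tested. The log2 ratio of all members was 0.16 at 16.5 dpc and -2.38 at 10 dpp. For sense members it was 0.10 and -3.33, for antisense members 0.16 and -2.51, for members on both strands 0.12 and -1.12, and for unmatched members 0.22 and -2.44. The share of member reads with a shorter form moved the other way, by -0.487 percentage points at 16.5 dpc and 8.18 at 10 dpp. Repeat-like members and pieces of other short RNAs were lower in KO at both ages.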

How the results depend on the processing

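No paired analysis was possible because each group is 1 library and the labels give no replicate numbers. Values follow the order Dnmt3L KO against WT at 16.5 dpc, Dnmt3L KO against WT at 10 dpp, Miwi2 KO against WT, Dnmt3L WT at 10 dpp against 16.5 dpc, and Miwi2 WT against Dnmt3L WT, and for single libraries the order used in the report. The log2 ratios of the level were 0.17, -2.44, 0.10, -2.22 and 1.39 per read of 18 to 35 nt, and 0.35, -2.62, 0.15, -3.26 and 1.97 per miRNA read. They were 0.15, -2.11, 0.0441, -1.85 and 1.08 for 28 nt alone, and 0.18, -3.38, 0.22, -2.69 and 1.68 for 29 nt alone. Counting distinct sequences, per distinct sequence of the library, they were 0.15, -1.30, -0.0693, -0.59 and 0.0517. There the Miwi2 ratio changed sign, and the cause was not tested. No other level changed sign.

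A at position 10 took 31.5%, 31.97%, 31.9%, 32.95%, 30.8% and 31.2% of distinct members. For 28 nt alone it took 33.6%, 34.5%, 30.3%, 33.02%, 30.1% and 32.4%, and for 29 nt alone 39.1%, 39.5%, 39.5%, 41.5%, 38.8% and 35.5%. Among matched members it was 37.9% and 39.03% at 16.5 dpc and 34.3% and 33.8% in Miwi2 WT and KO. Without members that begin like a miRNA, an alternative chosen after seeing the data, it was 34.6%, 35.8%, 32.3%, 32.7%, 31.6% and 32.2%. The antisense share of distinct members was 28.01%, 29.02%, 5.96%, 8.85%, 6.26% and 6.93%. With all transcripts it was 34.997% and 36.8% at 16.5 dpc and 6.49% and 8.94% in Miwi2 WT and KO. Without members in 10 or more genes it was 6.53% and 9.64% in Miwi2 WT and KO. Shorter forms with at least 10 reads were found for 44.4%, 41.7%, 28.9%, 44.1%, 36.7% and 51.2% of member reads. Over distinct members the share was 30.5%, 30.6%, 29.2%, 30.4%, 27.5% and 28.3%. In thinned libraries it was 63.5%, 61.95%, 53.4%, 56.3% and 67.6%, the smallest library being unchanged by construction. Without members that begin like a miRNA it was 63.95%, 63.5%, 53.8%, 60.2%, 56.4% and 67.5%.

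Counts of transcripts depended most on the settings. With at least 50 reads, 11 were higher and 3 lower in fetal Dnmt3L KO, 882 lower in Dnmt3L KO at 10 dpp and 73 lower in Miwi2 KO. In the same setting 551 were higher and 1098 lower with age, and 948 higher and 8 lower between the WT libraries. With at least 500 reads, 1 was higher in each Dnmt3L KO, 86 were lower in Dnmt3L KO at 10 dpp, 4 lower in Miwi2 KO, 73 higher and 204 lower with age, and 70 higher between the WT libraries. With only members found in 1 gene, 1 was higher in fetal Dnmt3L KO, 0 in Dnmt3L KO at 10 dpp, 14 in Miwi2 KO and 158 between the WT libraries, and 96 were lower with age. With TMM scaling 52 were higher and 8 lower in Dnmt3L KO at 10 dpp, 4 lower in Miwi2 KO, and 92 higher and 9 lower between the WT libraries. Size factors gave the same 52, 8, 4 and 9, with 87 higher between the WT libraries and 171 lower with age. The limit set by the WT libraries of 10 dpp was 16.5-fold, past which 95% of their transcripts did not differ. These WT libraries differ in their longest listed read, which the Miwi2 pair does not, so the limit is not a like yardstick for that pair. At that limit 0 were higher in either Dnmt3L KO, 27 higher and 0 lower in Miwi2 KO, 80 lower in Dnmt3L KO at 10 dpp, and 76 higher and 182 lower with age.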
